A study of Mus musculus with 16 samples.

Results

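Growth hormone reaches the liver from the pituitary and acts there through its receptor and the transcription factor STAT5B. The 10 genes described here are the growth hormone receptor Ghr, Stat5b, the circulating growth factor Igf1 and its carrier subunit Igfals, the feedback genes Socs2 and Cish, the repressor Bcl6, and the major urinary protein genes Mup3, Mup7 and Mup20. They were chosen by gene name, and all 10 were found among the 25719 genes of the table and passed the expression filter of every comparison. In male mice, growth hormone is released in pulses, and STAT5B is switched on in the liver with each pulse. Cish and Socs2 are induced by STAT5 and limit the signal of the receptor, whereas Bcl6 is repressed by STAT5 and binds many of the same DNA sites. The major urinary proteins are small lipocalins that male liver secretes in very large amounts, and that bind pheromones in the urine.

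Whole liver of C57BL/6J wild type (WT) mice and of Klrk1-/- mice, which lack the activating immune receptor NKG2D, was sequenced with 1 library per mouse. The mice were male and, per the study's methods, 8 to 12 weeks old. They received a normal chow diet (NCD) or, for 3 weeks, a steatosis-steatohepatitis diet (SSD) rich in fat, fructose and cholesterol. The groups held 4 WT mice on NCD, 5 WT mice on SSD, 4 Klrk1-/- mice on NCD and 3 Klrk1-/- mice on SSD. The groups are from the sample labels, which do not say whether mice shared a cage or litter, and no group received a treatment other than its diet.

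The libraries held 19892025 to 28936707 reads on genes, and every value is a normalized count, the read count divided by 1 factor per mouse. Klrk1 itself was present at 20 to 71 normalized counts in the 9 WT mice and at 1 to 9 in the 7 Klrk1-/- mice, without overlap. All 5 hepatocyte markers and all 4 Y-linked genes examined were detected in every mouse. The summed hepatocyte markers were lower on SSD, at 1455350 to 1891690 normalized counts against 2266920 to 2607250 in WT mice and at 2010550 to 2164720 against 2222260 to 2991950 in Klrk1-/- mice. The summed markers of macrophages (6 genes) were at 4041 to 4768 on NCD and 5054 to 11611 on SSD in WT mice, and at 3572 to 4381 and 4105 to 5109 in Klrk1-/- mice. Stellate cell markers (5 genes) were at 846 to 1259 on NCD and 1008 to 6665 on SSD in WT mice, and at 853 to 1224 and 1201 to 1590 in Klrk1-/- mice. The highest SSD values of both lists in WT mice are those of replicate 1, without which the macrophage markers reached 9263 and the stellate cell markers 2590. Markers of T and NK cells (4 genes) were at 30.1 to 45.6 on NCD and 58 to 84.4 on SSD in WT mice, without overlap, and at 41.8 to 64.7 and 46.4 to 66 in Klrk1-/- mice. Those of sinusoidal endothelium (4 genes) were at 1519 to 2586 and 2379 to 2824 in WT mice and at 2046 to 2331 and 2216 to 2785 in Klrk1-/- mice. The part of these shifts in the results on the 10 genes was not tested, and in whole liver fewer cells of a type and less RNA per cell cannot be told apart. Replicate 1 of the WT mice on SSD stood apart, with 29972 normalized counts of Mup3 against 158567 to 195096 in the other 4 mice, and values without it are given where it moves a call or a fold change by much.

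SSD lowered the receptor, the growth factor with its carrier, and a pair of the urinary protein genes in both genotypes. A gene was called when its fold change was beyond 1.5, which is 0.585 on the log2 scale, and its Benjamini-Hochberg adjusted p, from limma's trend method on log2(normalized count + 1), was under 0.05. In WT mice, 5 of the 10 genes were called, all lower (Ghr, Igf1, Igfals, Mup3 and Mup7), whereas 19.3% of all genes tested were called and 7.32% were called lower. The same 5 genes were called lower in Klrk1-/- mice, against 13.1% of all genes called, 6.6% lower and 6.54% higher. All SSD mice lay on 1 side of all NCD mice for 6 of the 10 genes in WT mice (29% of all genes) and for 5 in Klrk1-/- mice (37.6% of all genes). Without a fold limit 6 genes passed in each genotype, against 34.9% of all genes in WT and 29.4% in Klrk1-/- mice, and with a limit of 2 Igfals, Mup3 and Mup7 passed, against 9.01% and 5.46%. An unadjusted p under 0.05 was reached by 8 of the 10 genes in WT (45.4% of all genes) and by 6 in Klrk1-/- mice (41.4%). Between the genotypes, Mup7 alone was called, on NCD, where 5.79% of all genes were, 2.92% higher and 2.87% lower. The median log2 fold change of the 13091 genes tested for the diet in WT mice was -0.0015.

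**Figure D1:**
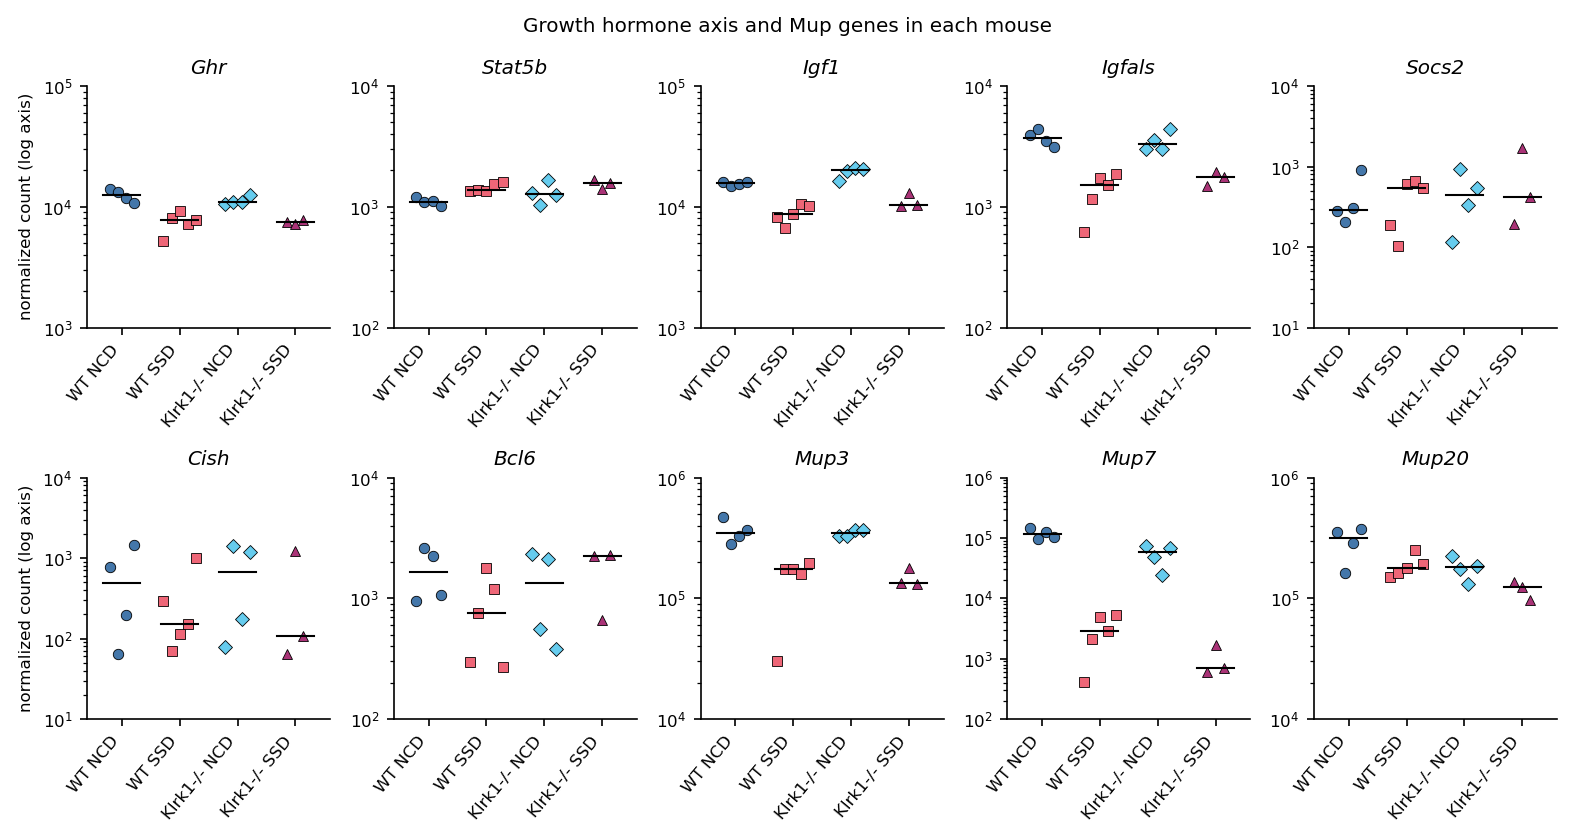
Normalized counts (log axis) of the 10 genes, with 1 point per mouse and a bar at the group median, for WT and Klrk1-/- mice on NCD or SSD. Ghr, Igf1, Igfals, Mup3 and Mup7 show no overlap between diets in either genotype, whereas Socs2, Cish and Bcl6 spread widely within each group.

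**Figure D2:**
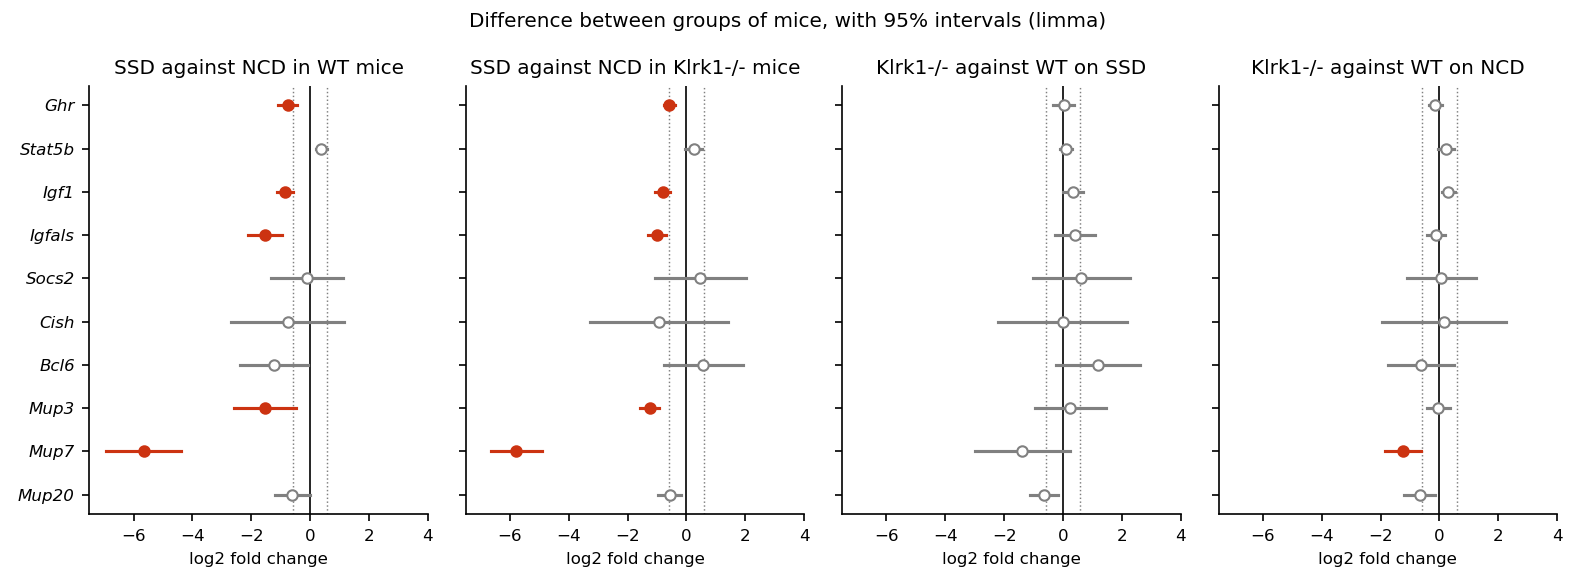
Log2 fold changes with 95% intervals (limma) of the 10 genes in 4 comparisons of groups of mice. Filled red points passed the adjusted p and the fold limit, dotted lines mark that limit of 0.585 in either direction, and the open points of Socs2, Cish and Bcl6 have the widest intervals next to Mup7.

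Levels were compared between genes per kilobase of the deposited gene length, which is shorter than the genomic span (1629 bases for Ghr). In WT mice on NCD, Mup3 had the highest mean at 381567 ± 87470 normalized counts per kilobase (mean ± SD, n = 4), followed by Mup20 at 315210 ± 102517 and Mup7 at 137070 ± 25423. The means of Mup3 and Mup20 lay closer together than their SDs. Igf1 followed at 7948 ± 285 per kilobase and Ghr at 7677 ± 875, which also lay within their spread of each other, and Igfals was at 2591 ± 370. The other genes were lower and did not differ beyond their spread, with Bcl6 at 459 ± 223, Stat5b at 302 ± 22.1, Socs2 at 300.2 ± 231 and Cish at 282 ± 288 per kilobase. In WT mice on SSD (n = 5), Mup20 had the highest mean at 201289 ± 42767 per kilobase, next to Mup3 at 154711 ± 70132. Mup7 was then at 3647 ± 2381 per kilobase, within its SD of Igf1 at 4496 ± 771 and Ghr at 4597 ± 903.

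Ghr (GRCm39 chr15:3347242-3612974, minus strand) encodes the receptor through which the liver senses growth hormone. In WT mice it was at 14118, 13139, 11919 and 10846 normalized counts on NCD and at 5183, 8030, 9184, 7225 and 7817 on SSD. All SSD values lay below all NCD values, and the log2 fold change was -0.76 ± 0.15 (SE), a 1.69-fold lower level (adjusted p = 0.0027, limma). The values in Klrk1-/- mice were 10561, 10918, 11035 and 12561 on NCD and 7479, 7173 and 7778 on SSD, a change of -0.59 ± 0.09 (adjusted p = 0.0004, limma). The latter lies at the fold limit, and leaving out Klrk1-/- NCD replicate 4 (-0.54) or Klrk1-/- SSD replicate 2 (-0.56) ended the call.

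Stat5b (GRCm39 chr11:100671557-100741550, minus strand), the factor that carries the receptor's signal to the nucleus, went the other way in WT mice, where all 5 values on SSD (1356, 1369, 1355, 1539 and 1599) lay above all 4 on NCD (1213, 1100, 1108 and 1015). The difference of 0.38 ± 0.09 on the log2 scale had an adjusted p of 0.0059 (limma) but stayed under the fold limit, at 1.3-fold. The values of Klrk1-/- mice on NCD (1306, 1041, 1658 and 1263) and on SSD (1658, 1400 and 1570) overlapped, and the difference was 0.24 with a 95% interval of -0.05 to 0.54 (adjusted p = 0.19, limma).

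Igf1 (GRCm39 chr10:87694127-87772904, plus strand) encodes the growth factor that liver releases in response to growth hormone. In WT mice it was at 16187, 14897, 15461 and 15891 normalized counts on NCD, the tightest group of any of the 10 genes, and at 8175, 6720, 8701, 10476 and 10078 on SSD. The log2 fold change was -0.84 ± 0.13, or 1.79-fold lower (adjusted p = 0.00043, limma). Igf1 in Klrk1-/- mice was at 16365, 19916, 20957 and 20478 on NCD and at 10108, 12928 and 10372 on SSD, a change of -0.81 ± 0.12 (adjusted p = 0.00039, limma). In each genotype every SSD mouse had less Igf1 than every NCD mouse.

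Igfals (GRCm39 chr17:25084971-25100984, plus strand) encodes the acid-labile subunit, which holds IGF1 and its binding protein in the circulation as a large complex. It was at 3935, 4401, 3530 and 3153 normalized counts in WT mice on NCD and at 614, 1152, 1729, 1504 and 1851 on SSD. The log2 fold change was -1.54 ± 0.27, or 2.91-fold lower (adjusted p = 0.0011, limma), and -1.28 without WT SSD replicate 1, which held the lowest value. Igfals in Klrk1-/- mice was at 2986, 3574, 3001 and 4436 on NCD and at 1473, 1927 and 1775 on SSD, a change of -1.01 ± 0.14 (adjusted p = 0.00029, limma). The difference between the genotypes in this change, 0.53 with a 95% interval of -0.22 to 1.29, was not called (adjusted p = 0.46, limma).

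The scaling of the libraries bears on Ghr, Igf1 and Stat5b. When every mouse was scaled to the same total, the median of all genes moved to 0.34 in the diet comparison of WT mice and to 0.25 in that of Klrk1-/- mice on the log2 scale. Against that shift, Ghr was at -0.41 in WT and -0.33 in Klrk1-/- mice and Igf1 at -0.49 and -0.55, all still lower but under the fold limit, whereas Stat5b in WT mice rose past it at 0.72. The median of the authors' scaling is the one at 0, and Igfals, Mup3 and Mup7 were called lower under both scalings in both genotypes.

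Socs2 (GRCm39 chr10:95221224-95253042, minus strand) and Cish (GRCm39 chr9:107173225-107179983, plus strand), the feedback inhibitors that growth hormone induces within minutes to hours, varied widely within every group. Cish ranged 22.9-fold over the 16 mice, from 63.7 to 1458 normalized counts. Within WT mice on NCD it was at 780, 64.4, 196 and 1458, and within WT mice on SSD at 293, 69.3, 115, 151 and 993. Within Klrk1-/- mice it was at 78.1, 1402, 177 and 1177 on NCD and at 63.7, 1210 and 106 on SSD. Every group thus held at least 1 mouse above 990 and at least 1 under 80, and the diets overlapped. The coefficient of variation of Cish was 95.8 to 141% in the 4 groups, against 3.59 to 17.1% for Igf1. The diet difference of Cish was -0.76 in WT mice, with a 95% interval of -2.68 to 1.16 (adjusted p = 0.53, limma), and -0.94 in Klrk1-/- mice, with an interval of -3.28 to 1.4 (adjusted p = 0.54). These intervals leave room for levels up to 6.42-fold lower in WT and 9.72-fold lower in Klrk1-/- mice, and also for higher levels.

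Socs2 was at 277, 207, 306 and 913 normalized counts in WT mice on NCD and at 185, 103, 611, 652 and 537.2 on SSD. In Klrk1-/- mice it was at 115, 920, 333 and 546 on NCD and at 192, 1684 and 420 on SSD. The groups overlapped in each genotype, and the diet difference was -0.1 with a 95% interval of -1.32 to 1.12 in WT mice (adjusted p = 0.91, limma) and 0.46 with an interval of -1.08 to 2.01 in Klrk1-/- mice (adjusted p = 0.66).

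Bcl6 (GRCm39 chr16:23783802-23807602, minus strand) was at 943, 2609, 2228 and 1066 normalized counts in WT mice on NCD and at 298, 749, 1765, 1194 and 268 on SSD. The log2 fold change was -1.23 ± 0.53 with a 95% interval of -2.38 to -0.08 and an adjusted p of 0.089 (limma), so it was not called, and leaving out WT SSD replicate 3, at 1765, took it to -1.59 and past both limits (adjusted p = 0.027). Bcl6 in Klrk1-/- mice was at 2328, 557, 2112 and 383 on NCD and at 2226, 666 and 2303 on SSD, a difference of 0.57 with an interval of -0.76 to 1.91 (adjusted p = 0.51, limma). The difference between the genotypes in the diet change was the largest of the 10 genes at 1.8, with an interval of -0.16 to 3.77, and was not called (adjusted p = 0.33, limma). A gene on the opposite strand, Gm37419, overlaps Bcl6. It was at 0 in 13 of the 16 mice and had at most 2.21 normalized counts.

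Cish and Bcl6 ran opposite to each other within groups. Of the 5 mice with over 990 normalized counts of Cish, 4 had between 268 and 666 of Bcl6 and WT NCD replicate 5 had 1066. Of the 4 mice under 80 of Cish, 3 had Bcl6 at 2328, 2609 and 2226, and WT SSD replicate 2 had it at 749. In WT SSD replicate 1, Cish at 293 lay between these sets of mice, and Bcl6 was low at 298. The deviations of the 16 mice from their group means, on the log2 scale, had a Pearson r of -0.86 and a Spearman rho of -0.73 between Cish and Bcl6, of 0.76 and 0.77 between Cish and Socs2, and of 0.81 and 0.79 between Igf1 and Socs2. Igfals went with Mup7 (r 0.86, rho 0.69), Ghr (0.83 and 0.70) and Mup3 (0.81 and 0.49), where the low values of WT SSD replicate 1 enter each pair. These values describe the 16 mice, whose counts share 1 scaling factor per mouse, and carry no test. For Cish, mice of each diet and each genotype stood at both ends of this order.

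**Figure D3:**
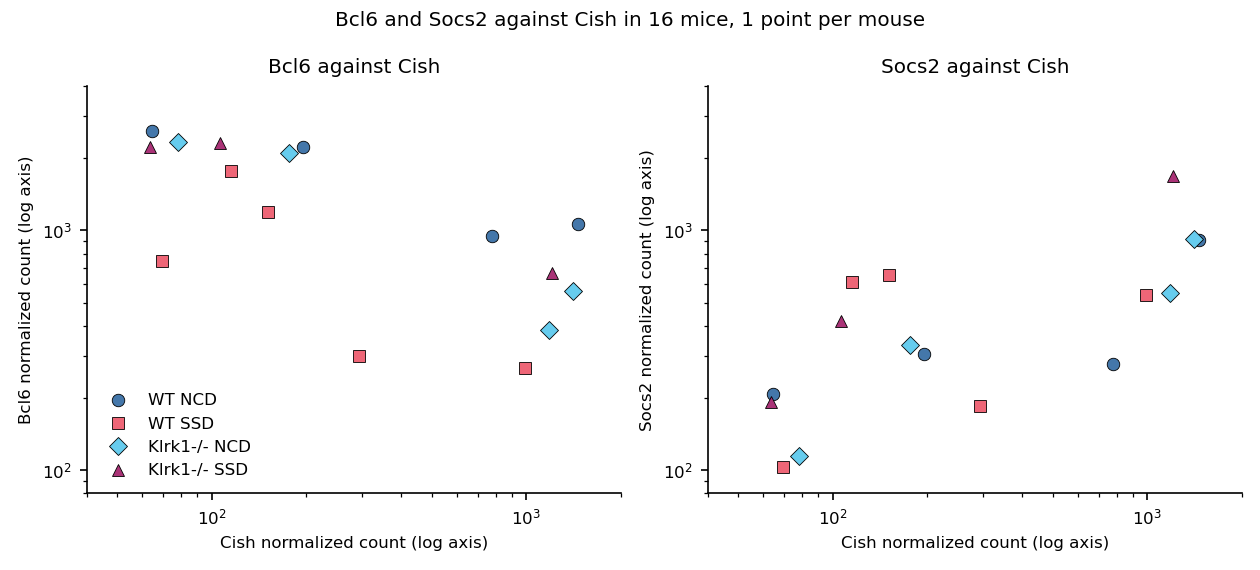
Bcl6 (left) and Socs2 (right) against Cish, as normalized counts on log axes with 1 point per mouse, marked by group. Mice with over 990 counts of Cish lie between 268 and 1066 of Bcl6 and between 537.2 and 1684 of Socs2.

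STAT5 binds the motif TTCNNNGAA, which reads the same on both strands. It was searched in the RefSeq promoter windows, 250 bases before to 50 after each start site, whose table is on GRCm38.p6, and the windows were placed by exact match on GRCm39. Of 32851 windows of this length, 8.3% held the motif. For 8 of the 10 genes there were 13 windows, and 5 windows of 3 genes (Cish, Bcl6 and Igfals) held it, while in those of Ghr, Stat5b, Igf1, Mup3 and Mup7 these letters were not found. The sites are shown since Cish and Bcl6 had the opposite deviations described above. Capitals mark the motif, each site is read 5′ to 3′ on the strand of its gene, and positions count from the start site.
Cish, chr9:107173853-107173882, from base 1 after the start, 2 motifs: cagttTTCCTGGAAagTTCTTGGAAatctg
Bcl6, chr16:23807702-23807730, from base -118: agcaaattagTTCTCAGAAttccagaggc
Bcl6, chr16:23800183-23800211, from base -168: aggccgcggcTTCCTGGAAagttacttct
Bcl6, chr16:23800137-23800165, from base -122: ggcaggagtgTTCTGTGAAatccttagag
Bcl6, chr16:23800103-23800131, from base -88: atcgactacgTTCCGGGAAtgagagggct
Igfals, chr17:25096572-25096600, from base -236: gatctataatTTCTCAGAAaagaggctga
Igfals, chr17:25097137-25097165, from base -58: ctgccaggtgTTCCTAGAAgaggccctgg
The last 3 sites of Bcl6 lie in 1 window and the other in a second one, and the Igfals sites lie in separate windows. A match is a stretch of letters and was not tested for binding.

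The Mup genes lie together on chromosome 4 and share much of their sequence, which limits how far reads can be given to a single gene. The table holds 22 Mup genes, 3 of them the members described here, and how the authors' counting treated reads that fit several genes is not given in the sources used here. In the transcripts of GENCODE M39, 97% of the 100-base windows of Mup3 occurred in no other Mup gene or pseudogene, 61.2% of those of Mup20 and 17.9% of those of Mup7. The coding sequence of Mup7 was at least 98% identical to that of 13 of the 19 other genes with a coding sequence of similar length, against a highest identity of 94.8% for Mup3 and 91.4% for Mup20. Values of Mup7 may therefore hold reads of its near copies, while those of Mup3 are the best separated of the 3. The 60 coding bases below, on the minus strand of chromosome 4 from a stretch that the 4 genes share, show this for Mup7, its closest copy Mup12, Mup20 and Mup3. They span an intron, and capitals mark bases that differ from Mup7.
Mup7, chr4:60069855-60070252: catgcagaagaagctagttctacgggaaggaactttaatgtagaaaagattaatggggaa
Mup12, chr4:60696769-60697166: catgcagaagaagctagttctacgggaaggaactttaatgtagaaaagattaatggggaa
Mup20, chr4:61971839-61972235: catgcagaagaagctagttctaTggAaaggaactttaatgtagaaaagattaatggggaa
Mup3, chr4:62005159-62005408: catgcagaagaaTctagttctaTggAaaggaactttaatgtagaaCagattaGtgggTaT
Mup12 had 0, Mup20 2 and Mup3 7 differences from Mup7 in these 60 bases.

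Mup7 (GRCm39 chr4:60066469-60070475, minus strand) changed most of the 10 genes. In WT mice it was at 145261, 96512, 125546 and 104751 normalized counts on NCD and at 413, 2083, 4970, 2892 and 5342 on SSD. The highest SSD value lay far below the lowest NCD value, and the log2 fold change was -5.65 ± 0.59, or 50.4-fold lower with a 95% interval of 20.7 to 122 (adjusted p = 3.3e-05, limma). Without WT SSD replicate 1 it was -5.03. Among Klrk1-/- mice Mup7 was at 73846, 47840, 24055 and 67408 on NCD and at 592, 1716 and 692 on SSD, a log2 fold change of -5.78 ± 0.39, or 54.9-fold lower with an interval of 30.3 to 99.7 (adjusted p = 1.2e-06, limma).

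Mup3 (GRCm39 chr4:62001713-62005579, minus strand), whose mean per kilobase in WT mice on NCD was next to that of Mup20, was at 473624, 279555, 326194 and 364475 normalized counts in WT mice on NCD and at 29972, 174412, 173735, 158567 and 195096 on SSD. The log2 fold change was -1.53 ± 0.48, or 2.88-fold lower (adjusted p = 0.028, limma), and without the low replicate 1 on SSD it was -1.02 with a smaller adjusted p of 0.0011. Leaving out WT NCD replicate 1, 3 or 5 took the adjusted p to 0.084, 0.055 or 0.058, and with no minimum mean it was 0.051. Mup3 in Klrk1-/- mice was at 325269, 327166, 369732 and 365002 on NCD and at 133845, 176627 and 130821 on SSD, a change of -1.25 ± 0.15, or 2.38-fold lower (adjusted p = 0.00011, limma), and the adjusted p was 0.054 with all 4 groups in 1 model. The diets did not overlap in either genotype.

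Mup20 (GRCm39 chr4:61968471-61972395, minus strand) encodes darcin, a male pheromone that marks the scent of males. It was at 352168, 161253, 284727 and 371911 normalized counts in WT mice on NCD and at 150221, 161138, 178282, 251575 and 192763 on SSD. WT NCD replicate 2 lay among the SSD mice, and the log2 fold change of -0.6 ± 0.27 had an adjusted p of 0.1 (limma), which became 0.019 without that mouse, at -0.86, and with all mice kept edgeR (-0.65, adjusted p = 0.048) and DESeq2 (-0.64, adjusted p = 0.012) called it. Mup20 in Klrk1-/- mice was at 222066, 174945, 130309 and 185779 on NCD and at 135503, 124195 and 96811 on SSD. This difference of -0.57 ± 0.18 had an adjusted p of 0.036 (limma) and was 1.49-fold, just under the fold limit, and without Klrk1-/- NCD replicate 3 it was called at -0.72.

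The 22 Mup genes together took 3.96 ± 0.854% of all normalized counts in WT mice on NCD (mean ± SD, n = 4) and 1.76 ± 0.476% on SSD (n = 5). Their share in Klrk1-/- mice was 2.56 ± 0.392% on NCD (n = 4) and 1.25 ± 0.16% on SSD (n = 3). The lowest NCD mouse, at 2.72% in WT and 2.07% in Klrk1-/- mice, was above the highest SSD mouse, at 2.16% and 1.42%. Within the family the balance moved towards Mup20, which made up 27.5 ± 3.35% of Mup counts in WT mice on NCD and 54.1 ± 16.4% on SSD, the latter with replicate 1 at 81.9% and the other 4 mice at 43.5 to 56%. Its share in Klrk1-/- mice was 25.9 ± 2.55% on NCD and 42.7 ± 5.58% on SSD. The share of Mup7 went from 11.6 ± 2.14% to 0.782 ± 0.444% in WT mice and from 7.59 ± 2.51% to 0.345 ± 0.168% in Klrk1-/- mice. Mup3 made up 35.1 ± 4.92% on NCD and 37.5 ± 12.7% on SSD in WT mice, the latter with replicate 1 at 16.3%. In Klrk1-/- mice Mup3 made up 51.6 ± 9.14% and 52.6 ± 3.63%. The other 19 genes went from 25.8 ± 4.11% to 7.57 ± 4.08% in WT mice. In Klrk1-/- mice they went from 14.9 ± 4.44% to 4.39 ± 1.84%.

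Of the other 19 Mup genes, 18 were tested for the diet. In each genotype 17 were called lower and 0 higher, beside 7.32% of all genes lower in WT and 6.6% in Klrk1-/- mice. The median log2 fold change of these 18 was -3.25 in WT and -2.57 in Klrk1-/- mice, beside -0.0015 and -0.002 for all genes. The WT value was -2.64 without WT SSD replicate 1. Of those called, 2 in WT and 3 in Klrk1-/- mice passed the expression filter through the NCD group alone, which leaves 15 of 16 and 14 of 15 called lower, with medians of -3.62 and -3.09. The largest changes were in Mup16 (-5.27), Mup15 (-4.27) and Mup18 (-4.24) in WT mice and in Mup17 (-4.93), Mup15 (-4.18) and Mup18 (-3.86) in Klrk1-/- mice. Without WT SSD replicate 1 the values in WT mice were -4.6 for Mup16, -3.35 for Mup15 and -3.34 for Mup18, and Mup1 (-3.63) came second. In WT mice Mup16 went from 5274 to 11919 normalized counts on NCD to 34 to 509 on SSD. Since the genes share sequence, these counts are not independent of one another or of Mup7. The exceptions were Mup6 in WT mice, at 25 to 49 normalized counts on NCD and 17 to 80 on SSD, and Mup22 in Klrk1-/- mice, at 18 to 34 and 14 to 22.

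**Figure D4:**
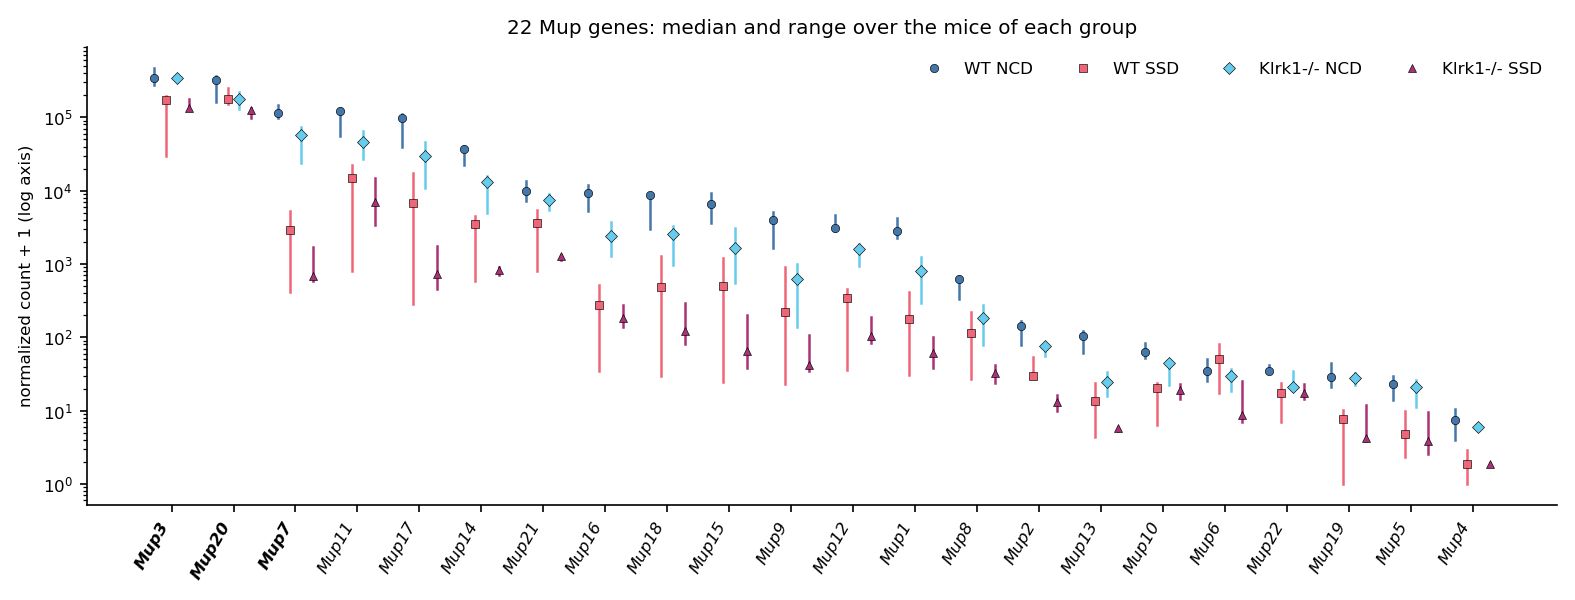
Normalized count + 1 (log axis) of the 22 Mup genes in the table, ordered by their mean in WT mice on NCD, with the median as a marker and the lowest to highest mouse as a line for each group. The names of Mup3, Mup7 and Mup20 are in bold. In WT mice Mup20 spans 150221 to 251575 on SSD, whereas Mup7 falls from 96512 to 145261 on NCD to 413 to 5342 on SSD.

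Klrk1-/- and WT mice on the same diet differed in few of the 10 genes. On NCD, Mup7 was lower in Klrk1-/- mice, with 4 values between 24055 and 73846 against 4 between 96512 and 145261 and no overlap. The log2 fold change was -1.25 ± 0.28, or 2.38-fold lower with a 95% interval of 1.56 to 3.64 (adjusted p = 0.015, limma), and the call was lost with all 4 groups in 1 model (adjusted p = 0.16). The smallest exact two-sided permutation p that 4 against 4 mice allow is 0.0286, and Mup7 and Igf1 reached it. Igf1 was higher in Klrk1-/- mice on NCD by 0.31 ± 0.1, at 16365 to 20957 against 14897 to 16187 normalized counts, with an adjusted p of 0.056 (limma). Groups that did not overlap were found for 19.3% of all genes in this comparison and for these 2 of the 10 genes. An unadjusted p under 0.05 was reached by Mup7, Igf1 and Mup20, against 31% of all genes, and with a fold limit of 2 Mup7 was still called, against 1.7%. Mup20 was at -0.67 with an adjusted p of 0.089 (limma), and at -0.93 with 0.016 without WT NCD replicate 2.

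In Klrk1-/- against WT mice on NCD, 2.87% of all genes were called lower and 2.92% higher. Of the other Mup genes, 12 of 18 tested were called lower and 0 higher, with a median log2 fold change of -1.44. They were led by Mup9 (-2.88), Mup15 (-2.09) and Mup1 (-2.08), and Mup9 was at 1670 to 5201 normalized counts in WT and 139 to 1011 in Klrk1-/- mice. With all 4 groups in 1 model 6 of them were called. Mup3, with 97% of its windows in no other Mup gene, was not called, at -0.03 with a 95% interval of -0.41 to 0.35 (adjusted p = 0.92, limma).

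On SSD, 0 of the 10 genes were called between the genotypes, where 2.13% of all genes were, 0.709% higher and 1.42% lower, and 2.9% without a fold limit. At an unadjusted p under 0.05 limma gave 2 of the 10 genes, Igf1 and Mup20, against 22.9% of all genes, and edgeR called 0 and DESeq2 1, Mup20. Mup20 was at -0.64 ± 0.22 (adjusted p = 0.12, limma), with the 3 Klrk1-/- values (96811 to 135503) below the 5 WT values (150221 to 251575) and an exact permutation p of 0.0357, the smallest that 3 against 5 mice allow. Groups without overlap were found for 17.9% of all genes here. Mup7 was at -1.38 with a 95% interval of -3.0 to 0.25 (adjusted p = 0.29, limma), and WT SSD replicate 1 at 413 lay below all Klrk1-/- mice. Without that mouse, Mup7 was called at -2.0 (adjusted p = 0.015) and Mup20 at -0.72 (adjusted p = 0.047), and the number of other Mup genes called lower went from 1, Mup2, to 11, whereas it was 0 without any 1 of WT SSD replicates 2, 3 and 4 or of the Klrk1-/- SSD mice.

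The diet by genotype interaction, which asks whether SSD changed a gene by a different amount in Klrk1-/- than in WT mice, was called for 0 of the 10 genes and for 0.849% of all genes, 0.291% higher and 0.559% lower, and for 0.88% without a fold limit. At an unadjusted p under 0.05 limma gave 0 of the 10 genes against 17.3% of all genes, and edgeR and DESeq2 called 0. For the genes called in both diet comparisons, the difference between the changes was 0.17 (95% interval -0.24 to 0.57) for Ghr, 0.03 (-0.35 to 0.42) for Igf1, 0.53 (-0.22 to 1.29) for Igfals, 0.28 (-0.99 to 1.55) for Mup3 and -0.13 (-1.91 to 1.66) for Mup7. The intervals of Ghr and Igf1 are narrower than 1 doubling, and those of Igfals and the Mup genes are wider.

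The lists that follow are read against all genes tested for the diet, of which 11.9% were called higher and 7.32% lower in WT mice, and 6.54% and 6.6% in Klrk1-/- mice. Of 25 other genes of its signalling, among them kinases, phosphatases and adaptors, 1 was called higher and 0 lower on SSD in WT mice, and 2 of 24 tested were called higher and 0 lower in Klrk1-/- mice. The gene called in WT mice was Sirpa, a receptor that macrophages carry too, at 289 to 412 normalized counts on NCD and 450 to 1853 on SSD, and this call was lost without any 1 of WT NCD replicates 1, 2, 3 and 5 or WT SSD replicate 4, with 2 genes called lower without WT NCD replicate 2 and 1 without WT NCD replicate 5 or WT SSD replicate 5. Those in Klrk1-/- mice were the adaptors Sh2b2 (0.75) and Irs2 (0.64), and 1 was called without Klrk1-/- NCD replicate 1 or 2 or Klrk1-/- SSD replicate 1. In Klrk1-/- against WT mice on NCD, 3 of 25 were called lower, where 2.87% of all genes were. They were the insulin receptor substrates Irs2 (-0.83) and Irs1 (-0.8) and the kinase subunit Pik3r1 (-0.6). Without WT NCD replicate 2 this count was 1. The median log2 fold change of the list for the diet was 0.07 in WT and 0.15 in Klrk1-/- mice. Scaled to the same total, 26.5% of all genes were called higher and 3.1% lower in WT mice, and 16.5% and 3.71% in Klrk1-/- mice. Of this list, 4 of 25 and 6 of 24 genes were then called higher and 0 lower.

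Of 16 genes of the IGF system, such as binding proteins and receptors, 1 of 11 tested was called higher for the diet in WT mice, Igfbp7 at 0.68, and 1 of 13 in Klrk1-/- mice, Igfbp2 at 0.92, which are near the shares of all genes. The call of Igfbp7 was lost without WT NCD replicate 1 and without WT SSD replicate 1, where it was at 4980 against 2040 to 2868 in the other 4 mice. The WT counts were 2 higher without WT SSD replicate 5, and 1 higher and 1 lower without WT NCD replicate 5. In Klrk1-/- mice 2 were called higher without NCD replicate 2. Without Klrk1-/- NCD replicate 3 or SSD replicate 1, the counts were 1 higher and 1 lower. Igfbp1, a binding protein that insulin represses, was lower in Klrk1-/- than in WT mice on NCD at -1.29 ± 0.17 (adjusted p = 0.00096, limma), with 877 to 1110 against 1692 to 3517 normalized counts. The list's median for the diet was 0.31 in WT and 0.26 in Klrk1-/- mice. Scaled to the same total, 5 of 13 genes of the IGF system were called higher in WT mice and 4 of 13 in Klrk1-/- mice, beside the 26.5% and 16.5% of all genes.

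Of 14 liver factors that act beside STAT5, 2 of 13 tested were called lower on SSD in WT mice, Onecut1 at -2.73 ± 0.46 and Cebpa at -0.64 ± 0.13. Onecut1, also known as hepatocyte nuclear factor 6, was at 444 to 686 normalized counts on NCD and 31 to 190 on SSD. Without WT SSD replicate 1 the counts were 1 lower and 1 higher, without WT NCD replicate 1 they were 1 lower and 0 higher, and without WT NCD replicate 3 they were 2 lower and 1 higher. In Klrk1-/- mice 1 of 14 was called, Tox, higher at 1.07. The medians of the list were -0.21 and 0.01. Scaled to the same total, the balance in WT mice turned to 3 of 13 higher and 1 lower, beside the 26.5% and 3.1% of all genes.

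Genes known to be higher in male than in female liver, a pattern set by pulses of growth hormone and by STAT5B, were mostly lower on SSD. Of 16 male-biased genes, all tested, 14 were called lower and 0 higher in WT mice, and 12 lower and 0 higher in Klrk1-/- mice. Selenbp2 fell most among those detected in all groups, from 40837 to 52201 normalized counts on NCD to 958 to 4637 on SSD in WT mice (-4.1) and from 13553 to 39680 to 710 to 1229 in Klrk1-/- mice (-5.0). The steroid enzyme gene Ugt2b38 was at -3.22 and -2.96, and Susd4 at -3.13 and -3.08. Moxd1 was at 106 to 1916 normalized counts in WT mice on NCD and at 0 to 2.7 on SSD, and in Klrk1-/- mice at 1.2 to 50.5 and at 0 to 1. It passed the filter through the NCD group alone, and without it 13 of 15 genes were called lower in WT and 11 of 15 in Klrk1-/- mice, and the medians of these 15 were -1.21 and -1.24 on the log2 scale. Scaled to the same total, 10 of these 15 were called lower in each genotype, beside the 3.1% and 3.71% of all genes.

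Female-biased genes did not all move the other way. Of 23 such genes, 11 passed the expression filter, and 3 were called higher and 1 lower in WT mice and 5 higher and 2 lower in Klrk1-/- mice. Cyp2a4 was at 1.2 to 5.5 normalized counts in WT mice on NCD and at 106 to 471 on SSD, and in Klrk1-/- mice at 7.5 to 35.7 and at 427 to 728. Cyp2b9 had 0 counts in every WT mouse on NCD and 5.3 to 131 on SSD, at least 7.98-fold higher when 3 reads per library are taken as the floor. In Klrk1-/- mice Cyp2b9 was at 0 to 18.7 on NCD and 54.1 to 159 on SSD. Both cytochrome P450 genes and Slc22a26 in WT mice, and Cyp2b9 and Cux2 in Klrk1-/- mice, passed the filter through the SSD group alone, where they were higher by that choice, and Slc22a26 and Cux2 were not called. Among the genes that reached the minimum mean in both groups, 1 of 8 was called higher and 1 lower in WT mice, near the shares of all genes, and 4 of 9 higher and 2 lower in Klrk1-/- mice. Acot3, a thioesterase gene that also responds to fatty acids, was higher at 3.57 and 3.25, and the steroid enzyme gene Cyp17a1 lower at -1.77 and -1.59. The median over those 8 and 9 genes was 0.43 in WT and 0.70 in Klrk1-/- mice. Tox, higher in Klrk1-/- mice on SSD than on NCD, is in this list too. Scaled to the same total, 5 of the 8 genes that reached the minimum in both groups were called higher and 1 lower in WT mice, beside the 26.5% and 3.1% of all genes. In Klrk1-/- mice 5 of 9 were then called higher and 2 lower, beside the shares of all genes given above for that scaling.

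Between the genotypes some genes of these lists were called, where on NCD 2.87% of all genes were called lower and 2.92% higher, and on SSD 1.42% and 0.709%. On NCD, 3 of 16 male-biased genes were lower in Klrk1-/- mice, Moxd1 at 1.2 to 50.5 against 106 to 1916 normalized counts, Ugt2b38 (-0.94) and the hydroxylase gene Cyp7b1 (-0.91). Of 9 female-biased genes tested, Cyp2a4 was higher (2.69) and Prom1 lower (-1.11), and Cyp2a4, at 1.2 to 5.5 normalized counts in WT mice, passed the filter through the Klrk1-/- group alone. Of 13 liver factors, Zhx2, a repressor of several liver genes, was lower (-0.68). On SSD, 0 of 15 male-biased genes were called by limma and 3 by DESeq2, 1 of them higher. Tox (1.14) was higher and Cebpb (-0.83) lower in Klrk1-/- mice on SSD, and Igfbp5 (-0.77) was lower. The call of Tox was lost without any 1 of WT SSD replicates 3, 4 and 5, that of Igfbp5 without WT SSD replicate 3, and those of both without any 1 of the Klrk1-/- SSD mice, while that of Cebpb was lost without Klrk1-/- SSD replicate 1 or 3. The interaction was called for 0 genes of these lists by limma and for 1 by DESeq2, a gene of receptor signalling. Over the 25 settings run for it, at most 1 liver factor was called higher and at most 1 of the other Mup genes lower.

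**Figure D5:**
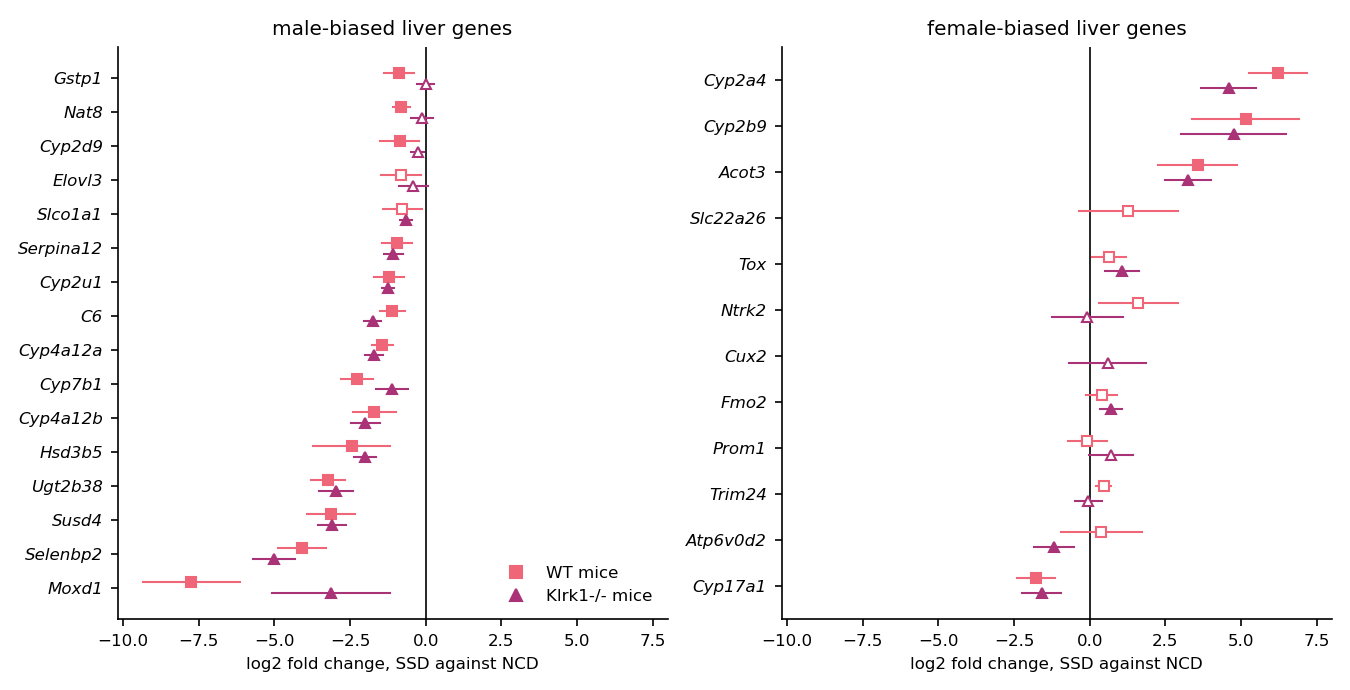
Log2 fold changes with 95% intervals (limma), SSD against NCD, of male-biased (left) and female-biased (right) liver genes that passed the expression filter, in WT mice (squares) and Klrk1-/- mice (triangles), with filled markers for called genes. All male-biased genes called lie left of 0, and the fitted values of Cyp2b9 in WT mice and Moxd1 in Klrk1-/- mice are those of genes at or under the floor of 3 reads in a whole group.

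The genes whose pattern over the 16 mice was most like that of a member were found as the smallest root mean square difference of log2 values, each gene centred on its own mean, among 9754 genes. For Igf1 these were Tmco6 at 0.128, Kng1 at 0.173 and Mst1 at 0.188, where the spread of Igf1 itself was 0.49. For Mup20 they were Cks1b (0.297), Tspyl2 (0.314) and Ppdpf (0.314), against a spread of Mup20 of 0.523. For Socs2 they were Wsb1 (0.789), Foxa2 (0.825) and Arid5b (0.876), against 1.09, so that no gene followed Socs2 closely. For Cish, added after the values were seen, Foxq1 (0.848), Phlda1 (0.887) and Clec2h (1.19) were nearest, against 1.71.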

How the data were processed

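Whole-liver RNA of 16 mice was sequenced by the authors as 100-base single reads. Reads passed FastQC, were aligned with STAR to GRCm39, and FeatureCounts gave a count per gene of GENCODE M26 (versions not given in the sources used here). The study's methods name a total RNA kit, the labels an mRNA kit. The signal the authors deposited is a normalized count, each count divided by 1 factor per mouse. DESeq2 is named for fold changes, and how the factors were made is not given. The deposited GC fraction was not needed for a result, and the other deposited columns used, gene lengths and positions in bases, served to compare levels between genes. Columns of the authors' own comparisons hold fold changes and p-values and were not used.

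Dividing each value by what 1 read is worth in that mouse gave back whole reads for 100% of the values (tolerance 0.02). In WT NCD replicate 2 a read is worth 1.01 normalized counts, close to 1. The lowest value of the 10 genes in any mouse was 64 reads. Counts of mice of 1 group differed beyond sampling noise (chi-square per gene of 13.7 to 104 over 25 pairs). Nothing says how far replicates were housed apart, so p-values measure the spread between these mice.

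Each comparison was fitted with limma 3.58.1 (trend method, R 4.3.3) to log2(normalized count + 1), which understates changes of low genes, in the mice of the groups compared or, for the interaction, in all 16. Genes entered at a mean of 10 or more in those mice, with Benjamini-Hochberg adjustment across all genes tested. Exact permutation tests over mice were two-sided, and in Klrk1-/- mice (3 against 4) cannot go below 0.0571. The alternatives tried were edgeR 4.0.16 and DESeq2 1.42.0 run on the whole reads, equal library totals, other pseudocounts (0.5 and 10), other minimum means (none and 50), other fold limits (none and 2), a block for the replicate number, a model of all 4 groups, and leaving out each mouse. The fits were tested on simulated counts with the same spread between mice for every gene, which does not cover genes as variable as Cish, Socs2 and Bcl6.

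The 10 genes, the gene lists and the tests were chosen with earlier results of these data known. Besides the 10 genes, the 3 called genes with the largest change in each list and comparison are named. Others (Susd4 in WT mice, Ugt2b38 in Klrk1-/- mice, Cyp17a1, Slc22a26, Cux2, Mup1, Mup6, Mup22) and the pairs of genes correlated over mice were chosen after their values were seen. Nearest patterns were sought among genes with a mean of at least 100. Promoter windows are from RefSeq (GRCm38.p6), transcripts from GENCODE M39, and coding sequences were aligned with Biopython.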

Additional observations from a re-analysis of the deposited data

Results flagged for a closer look

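In groups of 4 or 5 mice, a mouse was singled out when its gap to the next, divided by the range of its group, was above Dixon's 95% critical value, which chance passes in about 1 in 20 groups. Over the 10 genes, the genes named from the lists and the Mup shares, 125 groups were examined and 7 held such a mouse, 3 of them among the 30 groups of the 10 genes.

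Socs2 in WT mice on NCD was highest in replicate 5, at 912.6 normalized counts against 306.3 in the next mouse. Cish in WT mice on SSD was highest in replicate 5, at 992.8 against 292.9. Mup3 in WT mice on SSD was lowest in replicate 1, at 29972 against 158567. The same mouse was highest of its group in Igfbp7, at 4980 against 2868, and in Sirpa, at 1853 against 732.9. Mup18 in WT mice on NCD was lowest in replicate 2, at 2970 against 8414. Cyp2b9 in Klrk1-/- mice on NCD was highest in replicate 3, at 18.65 against 2.489.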

How the results depend on the processing

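In both diet comparisons the 5 called genes stayed lower under all alternatives run. With a fold limit of 2, 3 of the 10 genes were called in each genotype. At equal library totals 3 were called in Klrk1-/- mice, and 3905 against 2522 of all genes in WT and 2600 against 1696 in Klrk1-/- mice. Ghr in Klrk1-/- mice fell under the fold limit with edgeR (-0.58), and Mup3 lost its adjusted p in WT mice with no minimum mean (0.051) and in Klrk1-/- mice with all 4 groups (0.054). Mup20 in WT mice was called by edgeR (-0.65) and DESeq2 (-0.64). Between genotypes, DESeq2 called 1 gene on SSD, and with all 4 groups 0 were called on NCD. Leaving out 1 mouse gave 4 to 6 called genes in each diet comparison, 0 to 2 between genotypes on SSD and 1 to 2 on NCD. Over all genes, 279 called between genotypes on SSD became 45 to 447 without 1 mouse, 669 with DESeq2 and 551 with all 4 groups, 744 on NCD became 425 to 972, and 111 for the interaction became 37 to 185 and, with DESeq2, 354.

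Directions turned only in differences that were not called. At equal totals these were Socs2 for the diet in WT mice (0.25), Ghr (-0.093) and Stat5b (-0.019) between genotypes on SSD, and the interactions of Igf1 (-0.055) and Mup20 (-0.062). Between genotypes on SSD, Ghr was at -0.0012 with edgeR and -0.00016 with DESeq2, and Cish at 0.51 with each and at 0.0089 with a pseudocount of 10. The interaction of Cish was 0.34 with edgeR and 0.32 with DESeq2. Without 1 mouse, Socs2 ranged from -0.36 to 0.36 for the diet in WT and from -0.39 to 1.17 in Klrk1-/- mice. Between genotypes on NCD the ranges were -0.37 to 0.63 (Socs2), -0.64 to 0.93 (Cish) and -0.15 to 0.11 (Mup3). On SSD they were -0.10 to 0.10 (Ghr), -0.23 to 1.33 (Socs2), -1.30 to 0.81 (Cish) and -0.26 to 0.41 (Mup3). Interactions ranged from -0.079 to 0.10 (Igf1), -0.29 to 1.27 (Socs2), -1.47 to 0.65 (Cish), -0.23 to 0.44 (Mup3), -0.75 to 0.18 (Mup7) and -0.12 to 0.29 (Mup20). The cause was not tested.

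Deviations of same-numbered mice from their group means had correlations of -0.13 to 0.25. Differently numbered mice were not compared in this way, so whether the replicate numbers pair the mice cannot be told. With the replicate number as a block, 5 of the 10 genes were called for the diet in each genotype, 0 and 1 between genotypes and 0 for the interaction. Bcl6 (-1.45, adjusted p = 0.0061, limma) was called in place of Mup3 (0.072) in WT mice, and Socs2 (0.65, 0.0074), higher, in place of Ghr in Klrk1-/- mice. Cish under the block was at 0.60 between genotypes on SSD, and the interactions of Cish and Mup7 at 0.18 and 0.11. Of all genes the block called 595 between genotypes on SSD, 1129 on NCD and 42 for the interaction, against 279, 744 and 111 without it. With 3 to 5 mice a group, the intervals of Cish, Socs2 and Bcl6 are wide, although every value of the 10 genes rests on at least 64 reads.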
